A study of Mus musculus with 2 samples.

Results

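Toll-like receptors are the receptors with which cells of the skin and of the blood sense microbial molecules and material released from injured cells. The 10 genes described here are Tlr1, Tlr2, Tlr3, Tlr4, Tlr6, Tlr7 and Tlr13, the co-receptor genes Cd14 and Ly96, and Myd88, the gene of the adaptor that most of these receptors share. They were chosen by gene symbol, and all 10 were found among the 24346 gene symbols measured. The values come from mRNA sequencing of wounds in the dorsal skin of C57BL/6J neonates that were WT or PU.1-/-, with 1 library per genotype. Pups 1 day old were given a full-thickness incision of 1 cm, and the wounds were harvested 24 h later (the accompanying design text calls the wounds excisional). PU.1, encoded by Spi1, is a transcription factor that several kinds of white blood cell need to develop. PU.1-/- mice lack this factor in every tissue, not in a chosen cell type. The WT pups were littermates, no further treatment or allele is given for either group, and the number of pups behind each library is not stated.

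Toll-like receptors at the cell surface bind lipids and proteins of microbes, and those in endosomes bind nucleic acids. TLR2 works as a pair with TLR1 or TLR6 on bacterial lipopeptides, and TLR4 senses lipopolysaccharide together with MD-2, the product of Ly96, after CD14 has handed the ligand over. TLR3 binds double-stranded RNA, TLR7 single-stranded RNA, and TLR13 a stretch of bacterial ribosomal RNA. All of these except TLR3 signal through MyD88 to the kinases of the IRAK family, TRAF6 and NF-kB, whereas TLR3 uses the adaptor TRIF, encoded by Ticam1. In skin, macrophages, neutrophils and mast cells carry many of these receptors, and keratinocytes, fibroblasts and endothelial cells carry some.

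Levels are given as FPKM, the number of fragments scaled by transcript length and by library depth, so that they can be compared between genes. The libraries held about 13737620 (WT) and 15779328 (PU.1-/-) fragments, as estimated from the steps in which low values move. With 1 library per genotype there is no spread between animals and no p-value. The 95% intervals given are exact binomial (Clopper-Pearson) intervals for ratios and exact Poisson intervals for levels, from estimated reads, and they cover counting error only. A gene was called lower or higher when its values differed at least 2-fold, with values below 0.1 FPKM raised to 0.1. Spi1 itself had 35.4 FPKM in WT and 1.45 without PU.1, or 4.12% of WT (interval 2.94 to 5.59%).

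Of the 10 genes, 7 were called lower in the PU.1-/- wound and 0 were called higher. By the same rule 4.34% of all genes were lower and 2.32% were higher, and among the 13237 genes that reached 1 FPKM in either library, as all 10 did, 4.45% were lower and 1.71% higher. The 7 were not alike in how much was left. Tlr1, Tlr6, Tlr7 and Tlr13 were each at 2% of WT or less, as were 1.60% of the 12987 genes that reached 1 FPKM in WT. Cd14 was at 5.89% of WT, and Tlr2 and Tlr4 were at 40.0% and 37.1%. Ly96, Tlr3 and Myd88 were not called. In this bulk tissue, fewer cells of a type and less RNA per cell cannot be told apart.

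**Figure D1:**
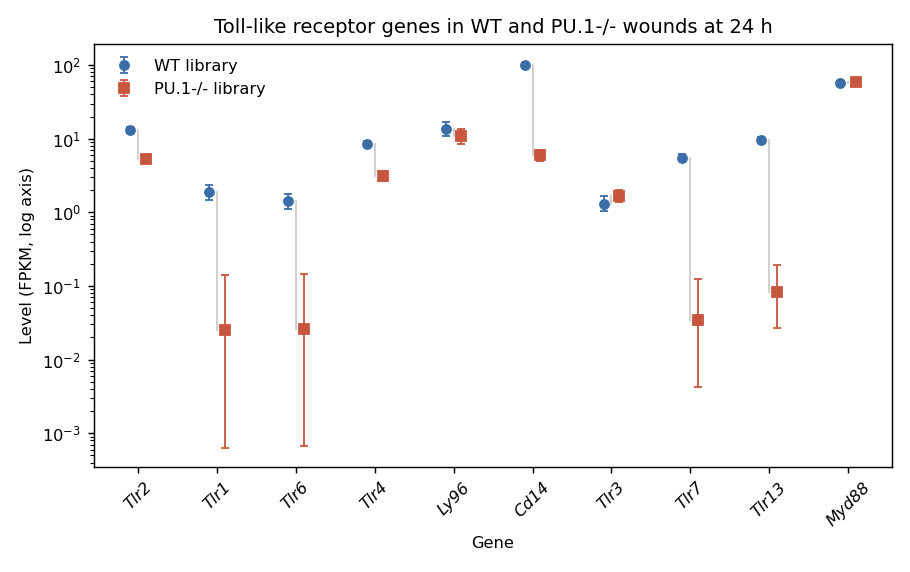
Level of each of the 10 genes in FPKM (log axis) in the WT library (circles) and the PU.1-/- library (squares), with bars for the 95% Poisson counting interval of estimated reads. Tlr1, Tlr6, Tlr7 and Tlr13 lie below 0.1 FPKM in the PU.1-/- library, while the symbols of Myd88 lie side by side at 57.2 and 58.9 FPKM.

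Since the libraries differ in PU.1, the stretch around the transcription start is shown for 4 of the genes, with the letters of a PU.1 core motif in capitals. The sequences are RefSeq windows on GRCm38.p6, from 250 bases before to 50 bases after the start, read 5′ to 3′ on the strand of the gene. Tlr1 (chr5:64933509-64933808, minus strand) and Tlr13 (chrX:106143025-106143324, plus strand) were among the receptors that were nearly absent. Their windows shown are the only 2 of the 8 found that hold the motif. Tlr6, also nearly absent, holds it in neither of its windows, and no window was found for Tlr7. Tlr2 (chr3:83841559-83841858, minus strand) was among those kept in part and Myd88 (chr9:119339969-119340268, minus strand) among those that were not called.
Tlr1: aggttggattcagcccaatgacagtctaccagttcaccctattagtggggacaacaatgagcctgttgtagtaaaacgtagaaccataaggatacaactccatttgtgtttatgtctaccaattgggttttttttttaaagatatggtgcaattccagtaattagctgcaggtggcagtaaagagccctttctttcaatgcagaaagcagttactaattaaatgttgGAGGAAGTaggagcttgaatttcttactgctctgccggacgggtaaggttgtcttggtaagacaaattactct
Tlr13: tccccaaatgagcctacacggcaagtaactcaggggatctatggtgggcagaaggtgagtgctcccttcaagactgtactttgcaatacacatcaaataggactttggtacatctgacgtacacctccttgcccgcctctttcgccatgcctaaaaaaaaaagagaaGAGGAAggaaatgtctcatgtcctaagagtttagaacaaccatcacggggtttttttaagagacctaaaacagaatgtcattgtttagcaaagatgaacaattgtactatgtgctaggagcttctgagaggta
Tlr2: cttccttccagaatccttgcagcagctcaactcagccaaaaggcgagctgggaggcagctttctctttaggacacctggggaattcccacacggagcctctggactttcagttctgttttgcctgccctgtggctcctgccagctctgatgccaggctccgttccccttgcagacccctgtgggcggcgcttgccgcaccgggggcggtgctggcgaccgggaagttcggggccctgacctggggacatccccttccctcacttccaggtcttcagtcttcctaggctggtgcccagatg
Myd88: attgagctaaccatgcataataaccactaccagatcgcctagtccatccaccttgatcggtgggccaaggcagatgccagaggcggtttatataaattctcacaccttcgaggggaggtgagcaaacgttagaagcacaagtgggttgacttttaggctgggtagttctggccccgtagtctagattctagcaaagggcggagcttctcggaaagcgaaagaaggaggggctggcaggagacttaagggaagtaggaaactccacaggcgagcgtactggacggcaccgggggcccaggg
The motifs searched were GAGGAA and, within it, the longer GAGGAAGT, on both strands. Of 9 members looked up, 6 matched the promoter table, with 8 windows in all. Cd14 was not looked up, and Tlr4, Tlr7 and Ly96 had no match, so nothing is said of their windows. GAGGAA occurred in 2 of the 8 windows, against 28.3% of all 32851 promoter windows. In Tlr1 it began 23 bases before the start and ran on as GAGGAAGT, which 3.20% of all windows hold, and in Tlr13 it began 83 bases before the start. The second start site of Tlr1 and the windows of Tlr2, Tlr3, Tlr6 and Myd88 did not hold these letters. A match of this kind is a description of the letters and does not show binding.

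Among the receptors of lipopeptides, Tlr2 was kept in part while its partners were nearly absent. Tlr2, on chromosome 3 of mm10 from 83836272 to 83841824, had a WT level of 13.2 FPKM and a PU.1-/- level of 5.26 FPKM. This is 40.0% of WT (interval 34.2 to 46.9%), from about 508 and 234 reads. Tlr1, on chromosome 5 from 64924680 to 64933600, was at 1.87 and 0.0250 FPKM, about 72 reads against 1. Its PU.1-/- level was 1.34% of WT, with an interval of 0.0302 to 6.95%. Tlr6, its neighbour on chromosome 5 from 64953092 to 64970942, was at 1.42 and 0.0262 FPKM, about 68 reads against 1. It was left at 1.85% of WT (0.0320 to 7.38%). The rounded reads do not give this percent exactly, since its FPKM ratio is that of 47 reads against 1. From those numbers the interval is wider, at 0.0459 to 10.8%. The intervals of Tlr1 and Tlr6 lay wholly below that of Tlr2. In FPKM, Tlr2 exceeded Tlr1 by 7.05 times and Tlr6 by 9.28 times in the WT wound, and for PU.1-/- the same ratios would rest on a single read of Tlr1 or Tlr6. Tlr1 and Tlr6 are close copies, and 11.5% of the 75-base windows of the Tlr1 transcript occur unchanged in Tlr6, so that some of their reads could be counted for either gene.

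In the receptor complex for lipopolysaccharide, the 3 genes differed in what was left. Cd14, on chromosome 18 from 36725064 to 36726815, had the highest level of the 10 genes in the WT wound, with 101 FPKM, against a PU.1-/- level of 5.97 FPKM. Its ratio of WT over PU.1-/- was 17.0 (14.2 to 20.3), from about 2007 and 136 reads. Tlr4, on chromosome 4 from 66827551 to 66846581, was at 8.41 and 3.12 FPKM, or 37.1% of WT (31.2 to 44.1%). Tlr4 thus lay close to Tlr2, and the intervals of these 2 receptors overlapped. Ly96, on chromosome 1 from 16688456 to 16709605, was at 13.5 and 10.8 FPKM. Its 79.9% of WT had an interval of 57.9 to 112%, which includes no difference, and its short transcript gave only about 80 and 74 reads. Cd14 exceeded Tlr4 by 12.1 times in FPKM in the WT library and by 1.91 times in the PU.1-/- library. Ly96 exceeded Tlr4 by 1.61 times and by 3.46 times, so that the order of Cd14 and Ly96 was turned around between the libraries.

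Of the endosomal receptors, Tlr7 and Tlr13 were nearly absent and Tlr3 was not called. Tlr13, on the X chromosome from 106143275 to 106160493, had a WT level of 9.73 FPKM and a PU.1-/- level of 0.0824 FPKM, about 516 reads against 5. This is 0.847% of WT (0.273 to 1.98%). Tlr7, on the X chromosome from 167303380 to 167330574, was at 5.55 and 0.0350 FPKM, about 282 reads against 2, or 0.630% of WT (0.0744 to 2.25%). The intervals of Tlr7 and Tlr13 overlapped those of the surface receptors Tlr1 and Tlr6. Tlr3, on chromosome 8 from 45395665 to 45411075, was at 1.31 and 1.69 FPKM, or 129% of WT (95 to 174%). Its interval includes no difference, and it lies wholly above those of Tlr7 and Tlr13. In sum the 3 endosomal receptors went from 16.6 to 1.81 FPKM, of which Tlr3 made up the greater part in the PU.1-/- library, and the 4 surface receptors from 24.8 to 8.43 FPKM.

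Tlr7 and Tlr13 are X-linked, and the libraries differ in sex-linked genes. Xist, whose RNA coats an inactive X, was listed at 0 for WT and reached 9.48 FPKM for PU.1-/-. On the Y chromosome, Ddx3y, Eif2s3y, Kdm5d and Uty ranged from 2.16 to 38.5 FPKM for WT, and all 4 were listed at 0 for PU.1-/-. Sex and genotype therefore cannot be told apart in these values. Of the 416 X-linked genes that reached 1 FPKM in either library, 4.57% were lower by the same rule and 1.68% were higher, and their median log2 ratio was 0.02.

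Myd88, on chromosome 9 from 119335934 to 119340018, had a WT level of 57.2 FPKM and a PU.1-/- level of 58.9 FPKM. Its 103% of WT had an interval of 95.9 to 111%, from about 1382 and 1637 reads, which includes no difference. It was the most abundant of the 10 genes in the PU.1-/- library and the second in the WT library. Of the windows of its longest annotated transcript (2458 nt, against 1960 nt used for the reads), 6.29% also occur in a transcript of Acaa1a. Relative to Tlr2, Myd88 was 4.35 times higher in FPKM in the WT library and 11.2 times higher in the PU.1-/- library.

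**Figure D2:**
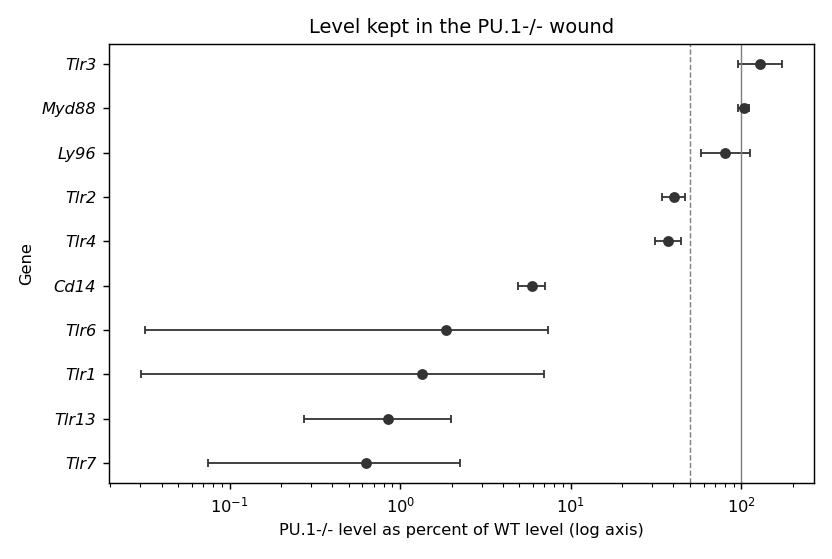
PU.1-/- level of each gene as percent of its WT level (log axis), with bars for the 95% binomial counting interval, a solid line at 100% and a dashed line at 50%. Tlr7, Tlr13, Tlr1 and Tlr6 lie at 0.630 to 1.85%, Cd14 at 5.89%, Tlr4 and Tlr2 near 40%, and the bars of Ly96, Myd88 and Tlr3 cross 100%.

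The order of levels also changed. In the WT library the order was Cd14, Myd88, Ly96, Tlr2, Tlr13, Tlr4, Tlr7, Tlr1, Tlr6 and Tlr3. The counting intervals of the neighbours Ly96 and Tlr2, Tlr13 and Tlr4, Tlr1 and Tlr6, and Tlr6 and Tlr3 overlapped. In the PU.1-/- library it was Myd88, Ly96, Cd14, Tlr2, Tlr4, Tlr3, Tlr13, Tlr7, Tlr6 and Tlr1, where the intervals of Cd14 and Tlr2 overlapped and those of the last 4 overlapped from each to the next. Tlr3, the lowest of the 7 Toll-like receptors in the WT wound, was thus above Tlr1, Tlr6, Tlr7 and Tlr13 in the PU.1-/- wound.

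Among 15002 genes searched, those nearest to Tlr2 on the log2 values of the 2 libraries were Anxa3 (12.9 and 4.89 FPKM), Apbb1ip (13.1 and 4.76 FPKM) and Sqrdl (13.3 and 5.97 FPKM). Those nearest to Cd14 were Ifi27l2a (120 and 6.15 FPKM), Wfdc17 (152 and 3.94 FPKM) and Il1r2 (70.1 and 11.0 FPKM). For Myd88 they were Tcea1, Caprin1 and Ppp1r2, all within 0.03 on the log2 scale. With only 2 libraries this likeness describes levels and nothing more.

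Of the 5 other Toll-like receptor genes, 2 were called lower. Tlr8, an X-linked gene for a further receptor of RNA, was at 3.59 and 0.0425 FPKM, about 159 reads against 2, or 1.18% of WT (0.131 to 4.02%). Tlr9, the receptor of unmethylated CpG DNA, was at 0.706 and 0.0192 FPKM, about 32 reads against 1. Both were called lower, Tlr9 not where values were raised to 1 FPKM or genes had to reach it. Tlr5, the flagellin receptor, was at 0.891 and 0.503 FPKM and was not called. Tlr11 was listed at 0 in both libraries, and Tlr12 had 0.0486 FPKM for WT and was listed at 0 for PU.1-/-. Neither of these was called.

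The rest of the pathway was described with lists of 106 further genes, of which 25 were called lower and 1 higher, with a median log2 ratio (PU.1-/- over WT) of −0.14. Over the 16298 genes that reached 0.1 FPKM in either library the median was −0.01. The median of the 10 genes themselves was −2.63. The 19 kinases and ubiquitin ligases held 1 of the lower genes, and the 16 induced cytokines and mediators held 6.

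**Figure D3:**
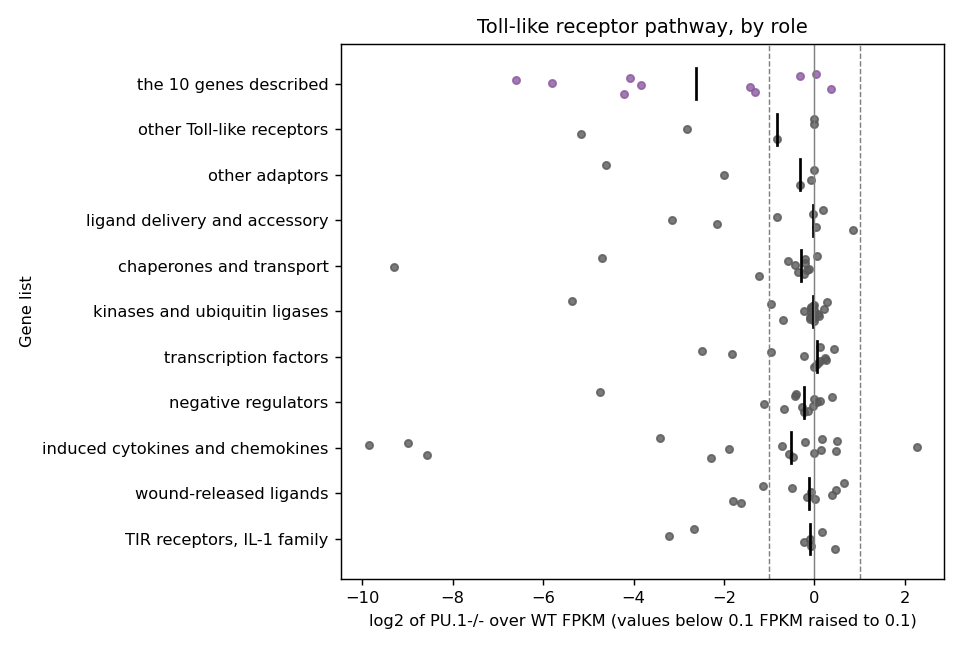
Log2 ratio of PU.1-/- over WT FPKM for each gene of the pathway (points), by role, with values below 0.1 FPKM raised to 0.1, the list median as a black bar and dashed lines at 2-fold. Of the kinases and ubiquitin ligases, Btk alone lies past the 2-fold line and Ikbke lies just inside it at −0.95, while the 10 genes described reach from −6.60 to 0.37.

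Of the other adaptors, Ticam1, which serves TLR3 and TLR4, was at 5.72 and 5.43 FPKM, and Tirap, the bridge from TLR2 and TLR4 to MyD88, at 5.76 and 4.60 FPKM. Neither was called. Ticam2, which links TLR4 to TRIF, was at 0.401 FPKM in the WT library and listed at 0 in the PU.1-/- library. Pik3ap1, the adaptor BCAP that ties these receptors to phosphoinositide 3-kinase, was at 5.12 and 0.209 FPKM, or 4.07% of WT. These last 2 were the adaptors called lower, of 5, and Ticam2 was not called with values raised to 1 FPKM.

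Among the 12 matched genes of receptor folding, transport and cleavage, 3 were called lower. Unc93b1, which carries the endosomal receptors out of the endoplasmic reticulum, was at 16.8 and 7.14 FPKM, or 42.6% of WT. Its interval of 36.4 to 50.1% reached just past the 2-fold limit. Ctss, a cathepsin of antigen-presenting cells, was at 63.1 FPKM in WT and listed at 0 in PU.1-/-. Slc15a3, a transporter of the endolysosome, was at 15.3 and 0.588 FPKM. The general chaperones were not called, with Hsp90b1 at 198 and 177 FPKM and Cnpy3 at 18.6 and 15.9 FPKM.

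Of the 7 genes of ligand delivery and accessory surface proteins, Cd180 and its partner Ly86, a receptor pair related to TLR4 and MD-2, were called lower. Cd180, likewise not called with that floor, was at 0.443 FPKM in WT and listed at 0 in PU.1-/-, and Ly86 was at 2.11 and 0.240 FPKM, about 27 reads against 4. Lbp, the plasma protein that brings lipopolysaccharide to CD14, was at 22.6 and 41.1 FPKM, or 182% of WT, short of the 2-fold limit. Cd36, a scavenger receptor that works with TLR2, was at 135 and 138 FPKM.

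Below MyD88, the shared kinases and Traf6 were not called. Irak1 was at 20.0 and 19.9 FPKM, Irak4 at 5.15 and 4.82 FPKM and Traf6 at 19.3 and 19.3 FPKM. Of the 19 kinases and ubiquitin ligases, Btk, a kinase of myeloid and B cells, was the gene called lower, from 4.09 FPKM to a value listed at 0. Ikbke was at 51.7% of WT and Irak2 at 61.5%. Of the 12 transcription factors, the NF-kB subunits Nfkb1 (33.4 and 33.0 FPKM) and Rela (36.2 and 37.3 FPKM) were not called. Irf5 and Irf8, interferon regulatory factors of myeloid cells, were, at 28.4% and 17.9% of WT.

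Of the 13 matched negative regulators, 2 were called lower. Socs1, an inhibitor of cytokine signalling, was at 9.96 and 4.61 FPKM. This is 46.3% of WT, with an interval of 38.7 to 55.1% that crosses the 2-fold limit. Pilra, an inhibitory receptor of myeloid cells, was at 2.67 and 0.0264 FPKM. Irak3, a kinase-dead member of the IRAK family, was at 27.9 and 23.9 FPKM, and Nfkbia, the inhibitor of NF-kB that NF-kB itself induces, was at 198 and 195 FPKM. Neither of these was called.

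The 16 cytokine and mediator genes that these receptors can induce went different ways, with 6 called lower and 1 higher. Il1b was at 63.9 and 0.169 FPKM, about 1015 reads against 3. Ccl3 and Ccl4, chemokines of macrophages, were at 93.1 and 51.0 FPKM in WT and listed at 0 in PU.1-/-. Tnf was at 20.4% of WT, Cxcl2 at 26.9% and Irg1 (now Acod1), the enzyme of itaconate synthesis, at 9.33%. Others of the list were not called, among them Il6 at 70.3 and 50.4 FPKM, Cxcl1 at 187 and 208 FPKM, and Ptgs2, the inducible cyclooxygenase, at 20.0 and 28.4 FPKM. Cxcl10, a chemokine induced by interferon, was the gene called higher, at 5.20 and 25.1 FPKM. Il12b was listed at 0 in both libraries.

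Among 10 genes for molecules that injured tissue offers to TLR2 and TLR4, S100a8 and S100a9 were the most abundant. S100a8 was at 6600 and 2129 FPKM and S100a9 at 5311 and 1516 FPKM, and both were called lower, as was Saa3 at 2318 and 1059 FPKM. The matrix genes Bgn (180 and 235 FPKM), Vcan (37.4 and 35.4 FPKM) and Tnc (204 and 181 FPKM) were not called, nor was Hspd1. Of 7 receptors of the interleukin-1 family, which share the TIR domain and MyD88 with the Toll-like receptors or compete with those that do, Il1r1 was at 57.0 and 77.8 FPKM and Il1rap at 13.6 and 12.9 FPKM. The decoy receptor Il1r2, at 70.1 and 11.0 FPKM, and Il18rap, at 4.20 and 0.455 FPKM, were called lower.

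Leukocyte marker lists were compared beside these genes, and they were not alike in how many markers were called lower. Of the 9 macrophage markers reported, 8 were lower, and no sum is given since the list is incomplete. Adgre1, Fcgr1, C1qa, C1qb and C1qc were listed at 0 for PU.1-/-. Of 6 monocyte markers, 5 were lower (287 and 96.7 FPKM in sum), with Ccr2, F13a1 and Ms4a4c listed at 0. Plac8, the uncalled marker at 112 and 96.5 FPKM, makes up nearly all of the PU.1-/- sum. Of 10 mast cell markers, 9 were lower (752 and 15.5 FPKM), with Mcpt4, Fcer1a, Ms4a2 and Tpsab1 listed at 0. Kit, at 71.4% of WT, was the mast cell marker not called. Of 9 matched neutrophil markers, 7 were lower (7312 and 2179 FPKM), with Csf3r, Mmp8, Ltf, Ngp and Retnlg listed at 0. Camp was called lower at 30.8% of WT, while Cxcr2 (63.8%) and Mmp9 (56.0%) were not called. Of 7 T cell markers, 4 were lower (4.54 and 1.11 FPKM), and of 6 NK cell markers, 2 (3.52 and 0.0340 FPKM). Of 8 markers of dendritic and Langerhans cells, 1 was lower (H2-Ab1, 6.91 and 1.28 FPKM) and 1 higher (Zbtb46, 1.28 and 2.77 FPKM), while Cd207 and Flt3 were listed at 0 in both libraries. None of 6 markers of plasmacytoid dendritic cells was called (120 and 139 FPKM), with Siglech and Klk1 listed at 0 in both. Cox6a2 (56.8 and 80.3 FPKM), Bst2 (47.6 and 35.2 FPKM) and Tcf4 (15.6 and 23.5 FPKM) make up nearly all of both sums. The list therefore does not show whether these cells were present. Of 5 matched B cell markers, 1 was lower (0.583 and 0.317 FPKM). In WT, only 2 of the 8 dendritic and Langerhans markers and 0 of the 5 B cell markers reached 1 FPKM. Both lists therefore say little about whether these cells differed. The neutrophil list includes S100a8, which makes up most of both sums and also stands among the ligands above.

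Most lists of tissue cells held no lower marker. None of the 10 fibroblast markers (2883 and 3404 FPKM in sum), the 10 keratinocyte markers (12262 and 13632 FPKM) or the 10 endothelial markers (238 and 266 FPKM) was called lower, and the skeletal muscle list, with 3 of 10 genes higher, stood at 8856 and 15069 FPKM. The adipocyte list differed, with 3 of 8 markers lower (3844 and 3236 FPKM in sum, mostly Fabp4), namely Plin1 at 44.6% of WT, Retn at 18.2% and Lep at 17.4%. Of 6 matched red blood cell markers, 3 were higher (547 and 920 FPKM). The share of the lower Toll-like receptor levels that goes with fewer leukocytes was not tested. For comparison, Tlr7 and Tlr13 were at 0.630% and 0.847% of WT, Cd14 at 5.89%, Tlr2 at 40.0% and Tlr4 at 37.1%. Of the 9 macrophage markers reported, 5 were listed at 0 for PU.1-/-. The others were Mrc1 at 0.777% of WT, Csf1r at 4.57%, Cd68 at 9.39% and Mertk at 69.2%.

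**Figure D4:**
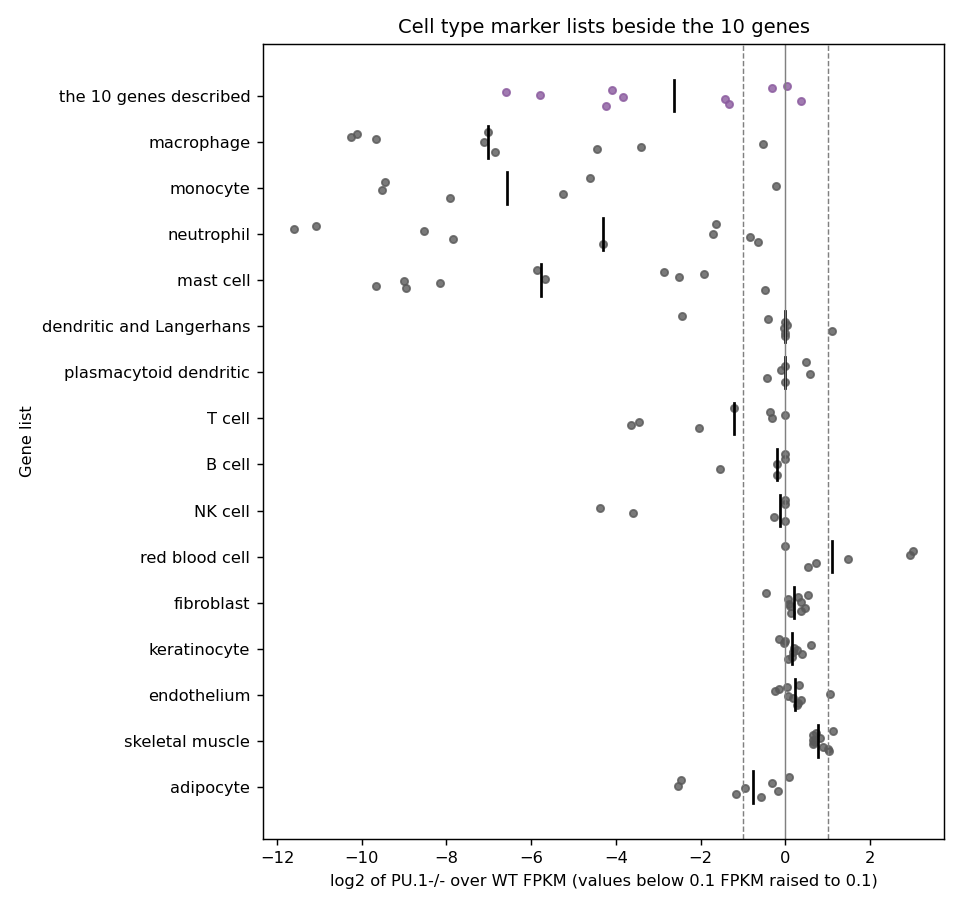
Log2 ratio of PU.1-/- over WT FPKM for the 10 genes described and for the genes of 15 cell type marker lists (points), with values below 0.1 FPKM raised to 0.1, list medians as black bars and dashed lines at 2-fold. The macrophage, monocyte, neutrophil and mast cell medians lie between −7.01 and −4.30, and the adipocyte median lies at −0.76. The dendritic cell and B cell medians lie near 0, but rest mostly on markers near or below the floor. In WT, 2 of 8 dendritic and Langerhans markers and 0 of 5 B cell markers reached 1 FPKM.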

How the data were processed

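Stranded mRNA libraries of skin wounds were sequenced in single-end mode (75 bases). The authors mapped the reads to mm10 and deposited FPKM values, which the paper's methods credit to Cuffnorm and the submitters' processing notes, naming TopHat2 2.1.1, Bowtie2 2.2.8 and SAMtools 0.1.18, to Cuffdiff 2.2.1. The gene annotation is not given in the sources used here. Groups were taken from the genotype label. From the deposited FPKM, values below 0.1 were raised to 0.1, and a 2-fold ratio was needed for a call. The files hold no counts. Among genes below 2 FPKM, 455 shared a ratio of 1.15, that of equal read numbers. The depth of each library came from 1370 genes with a single RefSeq-linked transcript in GENCODE M21 and a ratio of small whole numbers. Reads were estimated from FPKM, depth and the length of the longest RefSeq-linked transcript less 200 nt, for 89.1% of genes. Estimates are uncertain where the authors used another transcript: for 8 of the 10 genes the FPKM ratio was one of whole numbers no larger than the estimate allows. Gene positions were taken from RefSeq (GRCm38, which mm10 also is).

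The 10 genes and all gene lists were chosen with earlier results of these data known. The text names the 10 genes, Spi1, sex-linked genes, genes of the pathway lists (led by those called and those most abundant), defining markers, and the 3 genes nearest to Tlr2, Cd14 and Myd88 in Euclidean distance on log2 FPKM, among genes that reached 0.1 FPKM in each library. Other named markers and Acaa1a were chosen after their values were seen. Of the listed symbols, 7 were not matched. From the macrophage list, 1 marker is not reported here and was left out of its count and median. No test across animals was possible. The list of other pattern receptors and the X-linked background came after the data had been seen. Each function was first tested on simulated data. The software was scipy 1.17.1, numpy 2.4.6, matplotlib 3.10.9 and pandas 2.3.3 under Python 3.11.15.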

Additional observations from a re-analysis of the deposited data

How the results depend on the processing

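No paired analysis was possible because each genotype has 1 library, and for the same reason no library could be left out. Of the 10 genes, 7 were called lower under 9 of 11 alternatives. With values raised to 1 FPKM the count was 5, since Tlr1 (log2 ratio −0.90) and Tlr6 (−0.50) were not called, and with a 4-fold limit it was 5, since Tlr2 and Tlr4 were not. The scaling alternatives shifted log2 ratios by −0.01 to 0.06, except for Tlr1, Tlr6, Tlr7 and Tlr13, whose PU.1-/- values stayed at the floor of 0.1. Of 90 log2 ratios of single members under alternatives, 80 stayed within the counting interval. The 10 others concerned Tlr1, Tlr6, Tlr7 and Tlr13 under other floors or pseudocounts. Part of the 80 could not move, namely those of these 4 genes under scaling and those of the other members under other floors. The same holds for all members where only genes below 1 FPKM were left out. Of the other pathway genes, 18 (4-fold limit) to 33 (1.5-fold limit) were lower, against 25, and their median log2 ratio ranged from −0.16 to −0.08. Tlr9, Ticam2 and Cd180 were not called lower with a floor or pseudocount of 1 FPKM or with genes below 1 FPKM left out, and the lower kinases and ligases went from 1 to 3 with a 1.5-fold limit. Higher among them were 2 genes with a floor of 0.01 FPKM or a pseudocount of 0.1 FPKM and 3 with a 1.5-fold limit, against 1. Over all genes, 1057 were lower and 565 higher. These counts were 1778 and 1220 with a floor of 0.01 FPKM, 463 and 164 with a floor of 1 FPKM, and 461 and 89 with a pseudocount of 1 FPKM. They were 589 and 226 among genes that reached 1 FPKM in either library, 1867 and 1410 with a 1.5-fold limit, and 533 and 73 with a 4-fold limit. The floor acts on low genes by construction. PU.1-/- levels of Tlr1, Tlr6 and Tlr7 rest on 1 or 2 estimated reads, which limits what their ratios can say.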

Other observations

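A list of 20 other pattern receptors was added after the data were seen, and 10 of them were called lower and 0 higher, with a median log2 ratio of −1.60, beside −0.01 over all genes that reached 0.1 FPKM in either library. The C-type lectin receptors Clec7a, Clec4e, Clec4d and Clec4n, which bind fungal and mycobacterial glycans, were at 1.86, 17.7, 67.8 and 26.5 FPKM in the WT wound, and all 4 were listed at 0 in the PU.1-/- wound. Fpr1, a receptor of formylated bacterial peptides, was at 25.3 FPKM and listed at 0, and Fpr2 was at 13.4 and 0.0579 FPKM. The scavenger receptors Msr1 and Marco were at 58.5 and 7.92 FPKM in WT and at 0.0500 and 0.0707 FPKM in PU.1-/-. Pglyrp1, a peptidoglycan-binding protein of granules, was at 37.6 and 2.95 FPKM, and Aim2, a sensor of cytosolic DNA, at 1.30 and 0.270 FPKM.

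The other 10 genes of the list were not called. Zbp1, a sensor of nucleic acids, was at 13.2 and 7.25 FPKM and Dhx58, which encodes LGP2, at 3.70 and 1.94 FPKM. Nod1 was at 7.23 and 7.50 FPKM, Nod2 at 4.45 and 4.59 FPKM, Ddx58, which encodes RIG-I, at 4.62 and 4.62 FPKM, and Ifih1, which encodes MDA5, at 4.34 and 4.05 FPKM. Mavs, the adaptor of RIG-I and MDA5, was at 6.04 and 5.63 FPKM. Tmem173, which encodes STING, was at 21.0 and 25.1 FPKM.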
